A study of Mus musculus with 19 samples.

Results

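Thymocytes of 2 OT-II T cell receptor (TCR) transgenic mice, OT-II replicates 1 and 2, were compared with those of 2 unsorted C57BL/6 (B6) wild-type mice, replicates 4 and 5. All 4 mice were aged 4 to 8 weeks and were measured in the same experiment, in 6 of the 19 lanes of the series, with 1 lane for each OT-II mouse and 2 lanes, summed, for each wild-type mouse. Cells with at most 15% of UMIs from mitochondrial genes and at least 200 genes were kept, which left 31170 of the 79569 cells of the whole series, 5825 and 3178 in OT-II and 12521 and 9646 in wild-type mice. The series itself measured thymocytes of wild-type mice and of mice restricted to 1 T cell lineage by CITE-seq, in which RNA and antibody tags of 1 cell carry the same barcode. Its aim was to follow how CD4+ and CD8+ T cells part in the thymus. OT-II mice carry 2 transgenes that encode the α and β chains of a receptor for an ovalbumin peptide on MHC class II. The mice came from 1 transgenic line on the B6 background, and neither the labels nor the methods give them a Rag1 or Rag2 deletion. Other OT-II mice, which the paper used for flow cytometry, were Rag2-deficient. If the mice compared here had no such deletion, their own receptor genes could also rearrange. Lane groups were set from the lane numbers, since the labels name no batch within the experiment. The first held OT-II replicate 1 and wild-type replicate 4, and the second OT-II replicate 2 and wild-type replicate 5. The lane group was kept as a block in the main models.

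Most T cell precursors enter the thymus without CD4 and CD8 (double negative, DN), rearrange the TCRβ gene, pass a checkpoint at which the β chain pairs with the pre-TCRα chain, and become CD4+CD8+ (double positive, DP). DP cells then rearrange TCRα, are tested on self peptides bound to MHC, and those that receive a moderate signal become CD4 or CD8 single positive (SP), while stronger signals lead to death or to the regulatory T (Treg) fate. In TCR transgenic mice both chains are already rearranged, are often expressed from the DN stage on, and limit rearrangement of the other β alleles.

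The OT-II lanes held a median of 4248 and 2027.5 RNA UMIs per cell, and the wild-type lanes 3501 and 2867 in the first and 1567 and 1516.5 in the second lane group. RNA summed per mouse was tested with edgeR, with the 2 OT-I mice of the same experiment adding to the estimate of the spread, and a gene was called when its Benjamini-Hochberg adjusted p was under 0.05. RNA levels are given as CPM, the UMIs of a gene scaled to 1e+06 RNA UMIs of the mouse or gate, and antibodies as UMIs per 10000 antibody UMIs. The RNA calls rest on the lane-group block: without it edgeR called 0 genes in the whole thymus (910 at an unadjusted p under 0.05), 0 in DP (682), 2 in CD4 SP (287) and 1 in DN cells (267). In such sums fewer cells of a type and less RNA per cell cannot be told apart. As a check of the labelled tissue, Cd8b1, a coreceptor gene of thymocytes, was at 627 to 2104 CPM in all 4 mice. Any 2 of the 6 lanes shared at most 16 cell barcodes. Erythrocyte genes stood apart in OT-II replicate 1, where the 7 listed genes summed to 7847 CPM in the whole thymus, against 962 in OT-II replicate 2 and 702 and 181 in the wild-type mice, and calls of named genes that were lost without this mouse are given with the value without it.

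The Vβ5 chains that the antibody clone against Vβ5.1 and Vβ5.2 recognizes are encoded by Trbv12-2 and Trbv12-1, and the OT-II β chain is of this family. The V exons of both genes are shown as read from the GRCm38.p6 genome, because nearly all the RNA that OT-II mice had on the pair was counted on Trbv12-2. Each is 293 bases long on the plus strand, and capitals mark the 32 positions at which they differ.
Trbv12-1 (chr6:41113775-41114067): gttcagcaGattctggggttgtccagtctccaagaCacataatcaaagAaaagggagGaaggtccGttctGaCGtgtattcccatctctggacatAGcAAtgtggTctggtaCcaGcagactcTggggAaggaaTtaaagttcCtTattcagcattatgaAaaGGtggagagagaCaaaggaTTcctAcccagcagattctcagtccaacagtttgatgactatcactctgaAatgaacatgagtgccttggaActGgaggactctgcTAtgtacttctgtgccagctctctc
Trbv12-2 (chr6:41119072-41119364): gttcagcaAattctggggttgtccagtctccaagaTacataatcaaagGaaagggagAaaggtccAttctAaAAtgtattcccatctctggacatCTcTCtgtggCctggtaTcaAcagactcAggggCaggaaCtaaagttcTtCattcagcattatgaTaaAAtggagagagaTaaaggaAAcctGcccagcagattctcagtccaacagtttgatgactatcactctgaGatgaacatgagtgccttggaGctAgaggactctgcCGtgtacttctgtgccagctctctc
The exons were identical at 261 positions (89.1%), with no gap, and their longest run without a difference was 44 bases.

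The transgenic receptor was read first, as a check of the labels. Trac, the constant region of the TCRα chain, was counted at 8606 and 6234 CPM in the OT-II mice and at 489 and 488 CPM in the wild-type mice. Both OT-II mice were far above both wild-type mice, 15.7-fold (log2 3.97 ± 0.14 SE, edgeR adjusted p = 1.93e-07). The difference was present in each of 3 gates, at log2 5.2 in DN, 4.45 in DP and 2.81 in CD4 SP cells. The TCRβ constant regions did not move in this way. Trbc1 was at 3140 and 1445 CPM in OT-II against 3222 and 1588 CPM in wild-type mice (log2 -0.02, adjusted p = 0.941), and Trbc2 at 5988 and 3671 against 5571 and 2748 CPM (log2 0.33, adjusted p = 0.105). For both genes the groups overlapped, and both mice of the first lane group were above both mice of the second.

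Among the variable segments of the β chain, Trbv12-2 rose and nearly all others fell. Trbv12-2 was at 28.5 and 29.1 CPM in OT-II and at 4.9 and 5.65 CPM in wild-type mice (log2 2.53 ± 0.13, adjusted p = 2.16e-06). Trbv12-1 went the other way, with 0.363 and 0.41 CPM in OT-II against 3.35 and 9.53 CPM in wild-type mice (log2 -3.56 ± 0.27, adjusted p = 2.87e-05). The OT-I mice of the same experiment, whose receptor also has a Vβ5 chain, held the reverse pair of values, with 62.3 and 217 CPM on Trbv12-1 and 0.28 and 0.216 CPM on Trbv12-2. Of the 35 Trbv genes in the files, 21 were tested in the whole thymus, of which 1 was higher and 17 were lower, where 14.9% of all 13359 genes tested were called, 7.76% as higher and 7.15% as lower. The lower ones fell by 1.52 to 3.56 on the log2 scale. Trbv2, which took the largest number of wild-type Trbv UMIs (24.2% and 22.7% of them), was at 1.48 and 2.36 CPM in OT-II against 15.9 and 28.6 CPM in wild-type mice, and Trbv13-1 at 0.447 and 0.307 against 3.69 and 7.19 CPM.

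The α segments behaved differently. Of 128 Trav genes 48 were tested, and 0 were higher, 6 lower and 42 not called by edgeR, with a median log2 difference of -0.45. The OT-II α chain is of the Vα2 family, which the Trav14 genes encode, but no Trav14 gene rose. Of the 9 Trav14 genes 5 were tested, and 1, Trav14d-3-dv8, was lower (0.893 and 2.15 against 2.8 and 5.33 CPM, log2 -1.43, adjusted p = 0.00569; without OT-II replicate 1 the adjusted p was 0.0591), and Trav14 genes together took 9.24% and 11.6% of the Trav UMIs in OT-II against 12.7% and 14.2% in wild-type mice. Trav14 and Trbv UMIs were few in this 3′ assay, 192 and 77 Trav14 UMIs over all cells of the 2 OT-II mice, and how reads were split among Trav14 copies was not tested.

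**Figure D1:**
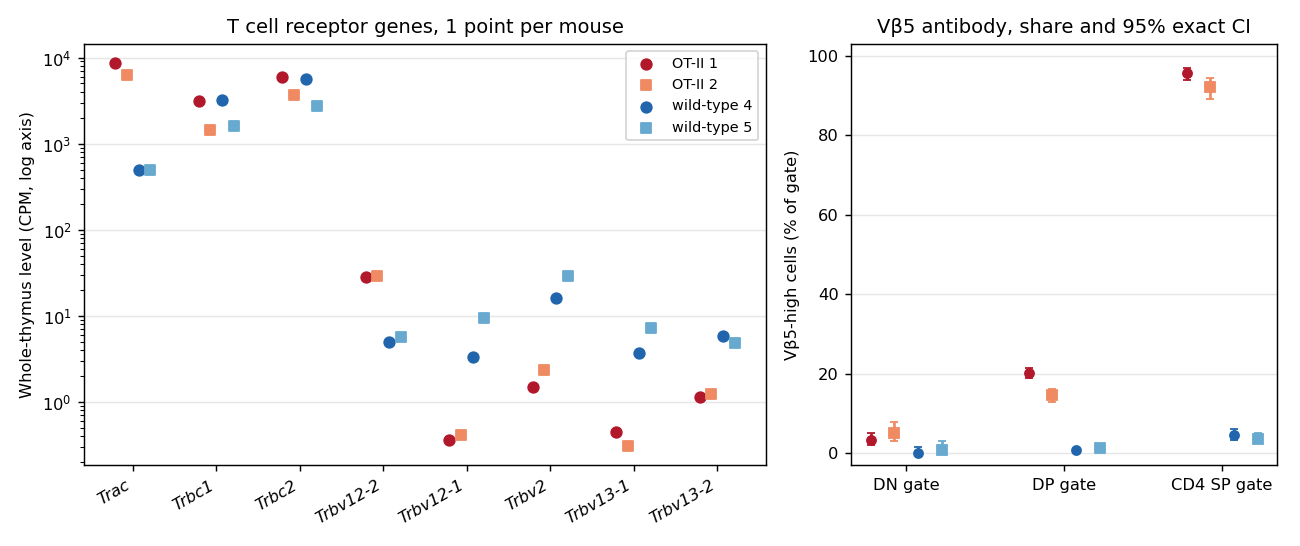
Levels of TCR genes in the summed cells of each mouse (left, CPM on a log axis) and the share of cells above the Vβ5 antibody threshold in 3 gates with 95% exact binomial intervals (right, percent). Red and orange are OT-II replicates 1 and 2, dark and light blue wild-type replicates 4 and 5. Trac and Trbv12-2 are higher in both OT-II mice, Trbv12-1, Trbv2, Trbv13-1 and Trbv13-2 are lower, and Trbc1 and Trbc2 follow the lane group; 95.6% and 92.1% of OT-II CD4 SP cells were Vβ5-high.

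On the cell surface the Vβ5 antibody gave 115 and 107 UMIs per 10000 in OT-II and 9.23 and 9.01 in wild-type thymi (log2 3.91 ± 0.36, edgeR adjusted p = 2.24e-20). The Vβ5 threshold was the lowest point between modes in CD4 SP cells of both genotypes pooled. It was 50.3 and 73.1 per 10000 in the first and second lane groups and was used in all gates. The cut was thus set on the CD4 SP cells that it divides. Vβ5-high cells made up 95.6% (735 of 769) and 92.1% (394 of 428) of OT-II CD4 SP cells, against 4.62% (44 of 952) and 3.65% (29 of 795) of wild-type CD4 SP cells. Median levels in this gate were 505 and 425 in OT-II and 4.61 and 4.2 in wild-type mice. In the DP gate the shares were 20.3% and 14.5% in OT-II and 0.758% and 1.2% in wild-type mice. The antibody against Vβ8.1 and Vβ8.2, chains encoded by Trbv13 genes, fell in CD4 SP cells from 7.1 and 8.23 to 2.26 and 2.23 per 10000 (log2 -1.21 ± 0.27, adjusted p = 0.000639), and RNA of Trbv13-2 was at 1.14 and 1.23 CPM in OT-II against 5.83 and 4.89 CPM in wild-type thymi (log2 -2.17, adjusted p = 0.00182).

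Rnf43, which encodes a ubiquitin ligase of the Wnt pathway, had the largest rise of all genes with a mean of at least 10 CPM over the 4 mice in the whole thymus, DP and DN comparisons. Some genes below that level had larger called rises, such as the erythrocyte gene Slc4a1 in DN cells, with no UMI in either wild-type mouse. Rnf43 was at 215 and 148 CPM in OT-II thymi and at 2.13 and 6.02 CPM in wild-type thymi (log2 5.77 ± 0.38, adjusted p = 1.19e-05). In the DP gate the levels were 285 and 180 against 1.71 and 5.07 CPM (log2 6.38), in CD4 SP cells 202 and 151 against 5.91 and 18.8 CPM (log2 4.26), and in DN cells 97.3 and 108 against 0.442 and 1.29 CPM (log2 7.22). The 2 OT-I mice, at 1.9 and 4.31 CPM, lay with the wild-type mice and not with OT-II (OT-II minus OT-I log2 5.97, adjusted p = 4.26e-06).

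Rnf43 lies at chr11:87662722-87735539 on the plus strand of GRCm38. The genes around it were looked at because of its rise, so this window was chosen after the values were seen. Of 18 genes of the files in a window of 250 kb to either side, Rnf43 included, 10 were tested in the whole thymus and 5 were higher and 0 lower, where 14.9% of all genes were called. Besides Rnf43 these were Sept4, a septin (37.6 and 24.9 against 10.5 and 4.6 CPM, log2 2.13), Mtmr4, a phosphoinositide phosphatase (19 and 23.3 against 11.7 and 15.1 CPM, log2 0.73), Hsf5 (log2 2.52) and Bzrap1, also named Tspoap1 (19.2 and 21.6 against 3.56 and 4.04 CPM, log2 2.49). Hsf5 stayed under 1 CPM in all 4 mice, and its call was lost without OT-II replicate 1 (adjusted p = 0.288) and without wild-type replicate 4 (adjusted p = 0.148). In CD4 SP cells Bzrap1 was at 60.9 and 55.2 CPM in OT-II against 1.44 and 2.82 CPM in wild-type mice (log2 5.05 ± 0.29, adjusted p = 3.77e-11), and its difference was larger there than in the DP gate by 3.11 on the log2 scale (edgeR interaction, adjusted p = 0.00305). Dynll2, a dynein light chain gene in the window, was lower in DP (log2 -0.45, adjusted p = 0.0419) and in CD4 SP cells (log2 -0.89, adjusted p = 0.00554). Supt4a, a transcription elongation factor gene between Rnf43 and Bzrap1, was higher in CD4 SP cells (log2 0.54, adjusted p = 0.0139).

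**Figure D2:**
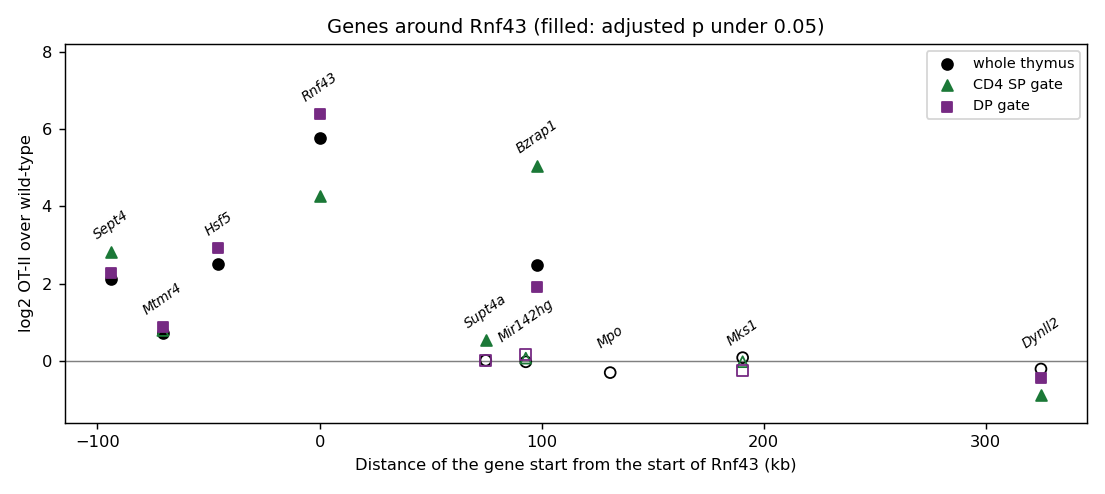
Difference between OT-II and wild-type mice (log2, vertical axis) of the tested genes around Rnf43 against the distance of each gene's start from that of Rnf43 (kb, horizontal axis), in the whole thymus (black circles), DP gate (purple squares) and CD4 SP gate (green triangles), with filled symbols for an adjusted p under 0.05. Sept4, Mtmr4, Hsf5, Rnf43 and Bzrap1 lie above 0.7 in the whole thymus, and the other 5 genes there lie near 0 with open symbols.

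Antibody gates were then set on CD4 and CD8a, and for SP cells on high TCRβ, from the wild-type cells of each lane group, to see which stages made up the thymus. DN cells were 10.9% and 11.4% of OT-II thymocytes and 2.04% and 2.44% of wild-type thymocytes, 8.91 percentage points more on average, with 8.84 and 8.99 points in the first and second lane groups. DP cells were fewer, at 69.8% and 61.9% against 86.5% and 83.8%. CD4 SP cells were more frequent, at 13.2% and 13.5% against 7.6% and 8.24%. CD8 SP cells, which the MHC class II-restricted receptor does not select, were 0.258% (15 cells) and 0.566% (18 cells) of OT-II thymocytes against 1.49% and 1.72% of wild-type thymocytes. The 18 cells of OT-II replicate 2 had a median of only 212 antibody UMIs, against 3390 in OT-II replicate 1 and 4855 and 3985 in wild-type mice. With protein filters added the mean share was 0.253% in OT-II and 1.61% in wild-type mice. In each of these gates the OT-II and wild-type mice did not overlap, although with 2 mice against 2 the exact permutation test cannot give a two-sided p below 0.33. The CD4 SP difference depended on the thresholds: with thresholds 1.5 times higher it was 1.94 points, and -0.141 points in the second lane group, where OT-II replicate 2 fell below wild-type replicate 5.

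Cells high for CD69, an early activation antigen that marks recent TCR signaling, were 9.69% and 8.69% of OT-II DP cells, against 10.0% in both wild-type mice, where the threshold was set at that share. In the CD4 SP gate they were 47.7% and 29.2% in OT-II and 69.7% and 64.3% in wild-type mice. Both OT-II mice were below both wild-type mice. These shares use UMIs per 10000 without the TMM scaling of the edgeR fits. In this gate the antibody TMM factors were 0.871 and 0.949 in OT-II and 1.30 and 1.35 in wild-type mice. With that scaling the CD69 antibody of the gate was not called, as given below. How far the scaling would move the shares was not tested. The CD69 threshold differed between the lane groups, at 23.5 and 33.7 per 10000, and the median CD69 of OT-II CD4 SP cells was alike in the 2 mice, at 22.7 and 25, against 54.5 and 55.3 in wild-type mice.

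**Figure D3:**
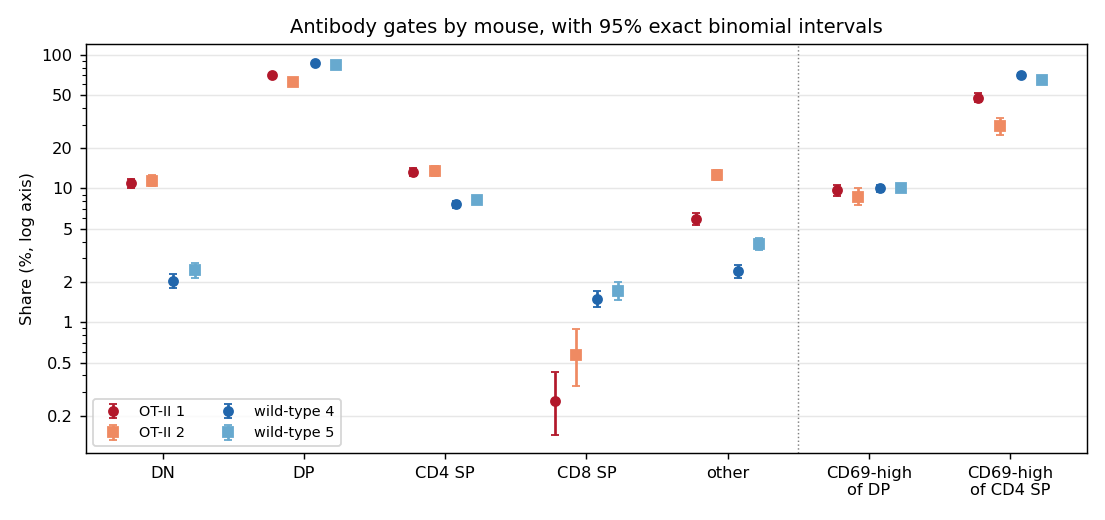
Share of cells in each antibody gate and of CD69-high cells within the DP and CD4 SP gates (percent, log axis), 1 point per mouse with its 95% exact binomial interval, which covers counting error only. OT-II mice (red, orange) lie above wild-type mice (blue) for DN, CD4 SP and other cells and below them for DP, CD8 SP and CD69-high CD4 SP cells.

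In the summed whole thymus 1037 genes were higher and 955 lower in OT-II mice, with a median log2 difference of all genes of 0.00. RNA of both coreceptors fell, Cd8b1 from 1820 and 2104 to 642 and 627 CPM (log2 -1.56) and Cd4 from 310 and 289 to 130 and 111 CPM (log2 -1.24). The transcription factor Zbtb16 (PLZF), which directs NKT and other innate-like T cells, was at 0.112 and 0.205 against 2.15 and 1.33 CPM (log2 -3.73 ± 0.60, adjusted p = 0.00246; without OT-II replicate 1 log2 -2.55, adjusted p = 0.114). The list of 11 NKT and innate-like markers that holds it had 2 higher and 3 lower members (1 to 3 and 3 to 4 without 1 mouse), and summed to 278 and 206 CPM in OT-II against 202 and 212 CPM in wild-type thymi. Of 10 γδ T cell markers 9 were higher and 1 was lower. The transcription factor Maf, which is on that list, was much higher (72.5 and 158 against 5.15 and 15.2 CPM, log2 3.66 ± 0.12, adjusted p = 1.33e-07). Maf was higher still in the 2 OT-I mice (137 and 364 CPM, OT-II minus OT-I log2 -1.14). The γδ list counts were the same without any 1 of the 4 mice. All 7 erythrocyte markers were higher and remained so in number without any 1 mouse. Of 12 myeloid and dendritic markers 2 were higher, 1 was lower and 9 were not called. The neutrophil granule genes Camp (320 and 58.9 against 4.84 and 22.8 CPM) and Chil3 (75.2 and 25.4 against 1.65 and 12.6 CPM) were higher, most in OT-II replicate 1. Their log2 differences of 3.83 and 3.33 became 1.44 and 1.19 without OT-II replicate 1, and both were still called. Of the antibodies 11 were higher and 1 lower (10.8% of 111 called, 9.91% as higher and 0.901% as lower), a split that became 8 and 3 when library size replaced TMM scaling. Without 1 mouse 2 or 3 were called, and 68 when only the 4 mice were fitted.

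The DP gate gave 717 higher and 950 lower genes (13.6% of 12257 tested, 5.85% as higher and 7.75% as lower). Genes of the pre-TCR stage were higher: 6 of 11 tested members rose and 0 fell, with a median log2 difference of 1.02 against -0.03 for all genes. Dtx1, a Notch target, was at 49.5 and 65.5 CPM in OT-II against 5.97 and 8.58 CPM in wild-type DP cells (log2 3.02 ± 0.12, adjusted p = 6.77e-10). Il2ra, which encodes CD25 (IL-2 receptor α), was at 66.4 and 124 against 8.37 and 30.8 CPM (log2 2.54 ± 0.17, adjusted p = 1.32e-07), and Ptcra, the pre-TCRα chain, at 175 and 122 against 85.9 and 63.1 CPM (log2 1.02 ± 0.10, adjusted p = 6.7e-06). In each of the 3 genes both OT-II mice lay above both wild-type mice. Notch1 (log2 1.03) and Notch3 (log2 1.42), receptors needed for early T cell development, and the Notch target Hes1 (log2 2.20) made up the other 3, and all 6 were called whichever of the 4 mice was left out. CD25 protein followed its RNA, with 69.9 and 93.8 antibody UMIs per 10000 in OT-II DP cells against 7.02 and 10.8 in wild-type DP cells (log2 3.73 ± 0.37, adjusted p = 1.49e-17).

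Genes of the resting, rearranging DP cell were lower in the same gate. Rag1, of the recombinase, was at 557 and 1103 CPM in OT-II against 1294 and 2005 CPM in wild-type DP cells (log2 -1.0 ± 0.14, adjusted p = 0.000134). Rag2 (log2 -0.6) and Dntt, the enzyme that adds untemplated bases at receptor joints (log2 -0.76), fell with it, 3 of the 10 recombination genes in all, with 0 higher. Of 13 markers of quiescent DP cells, a list that also holds Rag1, Rag2 and Cd8b1, 11 fell and 0 rose (median log2 -0.63). Among them were Tdrd5 (22.4 and 21.3 against 95.4 and 76.3 CPM, log2 -1.97), Mns1 (119 and 112 against 278 and 297 CPM, log2 -1.28) and Endou (log2 -1.11), and 8 to 10 of the list were called when 1 mouse was left out. Coreceptor RNA fell as well although the gate required both proteins, Cd8b1 from 2343 and 2658 to 1109 and 1158 CPM (log2 -1.11) and Cd4 from 380 and 344 to 191 and 160 CPM (log2 -1.01).

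Cell cycle genes were lower in OT-II DP cells. All 16 G2M genes fell (median log2 -0.89), for example Mki67 from 500 and 765 to 299 and 344 CPM (log2 -0.92) and Ccnb1, a mitotic cyclin, from 116 and 125 to 57.3 and 58 CPM (log2 -1.04). Of 16 S phase genes 14 fell (median log2 -0.53), with Rrm2, a subunit of ribonucleotide reductase, at 133 and 114 against 282 and 239 CPM (log2 -1.05). The G2M count was 16 without any 1 of the mice, and the S phase count ranged from 8 without OT-II replicate 1 to 16 without OT-II replicate 2.

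TCR response genes in DP cells went both ways, with 4 of 21 tested members higher and 6 lower, but without wild-type replicate 4 there were 0 higher and 5 lower. Cd5, a negative regulator whose level follows TCR signal strength, was at 204 and 133 CPM in OT-II and 130 and 114 CPM in wild-type DP cells (log2 0.48 ± 0.11, adjusted p = 0.00837), and the call was lost without OT-II replicate 1 (adjusted p = 0.0577) and without wild-type replicate 4 (adjusted p = 0.163). CD5 antibody was higher too, at 777 and 814 against 455 and 560 per 10000 (log2 1.17 ± 0.37, adjusted p = 0.0303). Of the lower members, Nr4a1 fell from 19.2 and 38 to 8.63 and 13.1 CPM (log2 -1.31 ± 0.16, adjusted p = 6e-05), Egr2 from 7.27 and 6.1 to 2.35 and 2.05 CPM (log2 -1.65) and Nr4a3 from 4.23 and 9.66 to 0.766 and 0.819 CPM (log2 -2.89). Zbtb7b, which encodes the CD4 lineage factor THPOK, was at 7.82 and 11.1 against 2.68 and 5.67 CPM (log2 1.31 ± 0.20, adjusted p = 0.000396). Runx3, the CD8 lineage factor, was called as well (39.1 and 42.6 against 20.2 and 37.9 CPM, log2 0.64), and so was Gata3 (log2 0.43, groups overlapping). Both lost the call without OT-II replicate 1 (adjusted p = 0.277 and 0.141) and without wild-type replicate 4 (adjusted p = 0.118 and 0.368).

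Interferon-stimulated genes were called in 7 of 15 cases, all higher, among them Bst2 (161 and 70.5 against 88.2 and 29.7 CPM, log2 1.06), Usp18 (14.5 and 18.4 against 7.54 and 8.42 CPM, log2 1.03) and Isg15 (log2 0.81). The count was 4 without wild-type replicate 4, 10 without OT-II replicate 1, and 6 with 2 lower without OT-II replicate 2, and in CD4 SP cells the list had 0 higher and 1 lower member. In CD4 SP cells 9 were lower without OT-II replicate 2 or without wild-type replicate 5, and 2 were higher and 0 lower without OT-II replicate 1. γδ T cell markers were higher in this gate also, 8 of 10, with 1 lower that was not called in any fit without 1 mouse. Maf was at 29.4 and 71.7 against 1.99 and 8.09 CPM, Blk, a Src family kinase, at 6.49 and 9.01 against 0.65 and 0.917 CPM (log2 3.32), and Sox13, a γδ lineage factor, at 5.21 and 9.83 against 0.67 and 2.21 CPM (log2 2.57). The 5 tested erythrocyte markers all rose, and that list summed to 1589 and 453 CPM in OT-II against 133 and 95 CPM in wild-type DP cells. B cell markers were called lower in 4 of 8 cases (2 with DESeq2), with log2 differences from -7.98 to 0.28. Fcmr, Pax5 and Ms4a1 of that list had no UMI in either OT-II mouse. The list summed to 477 and 314 CPM in OT-II against 424 and 330 CPM in wild-type DP cells, so the groups overlapped. Myeloid markers were called lower in 3 of 12 cases, 8 without wild-type replicate 4 and 1 without wild-type replicate 5. What these other cells added to the genes above was not tested.

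In DP cells 7 of 111 antibodies were called (6.31%), all higher. The TMM factors of these sums were 0.927 and 0.92 in OT-II and 1.31 and 1.34 in wild-type mice. This scaling moves every log2 difference of the gate upward relative to the printed levels, which are not TMM-scaled. Besides Vβ5, CD25 and CD5 these were CD304 (Neuropilin-1; 60.4 and 37.7 against 22 and 22.1 per 10000, log2 1.61), Sca-1 (38.7 and 50.9 against 25.3 and 27.6, log2 1.28), CD24 (log2 1.17) and Ep-CAM (log2 0.92). CD25 was called whichever of the 4 mice was left out, while CD5, CD304, Sca-1, CD24 and Ep-CAM were each called in none of those 4 fits, in which 1 or 2 antibodies passed in all. The Vβ5 call in DP cells was lost when either wild-type mouse was left out (adjusted p = 0.387 without replicate 4 and 0.1 without replicate 5).

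In the CD4 SP gate 146 genes were higher and 234 lower (3.96% of 9600 tested, 1.52% as higher and 2.44% as lower). Gzma, which encodes the serine protease granzyme A, rose from 3.99 and 3.76 CPM in wild-type to 191 and 195 CPM in OT-II cells (log2 5.69 ± 0.21, adjusted p = 7.56e-15), 51.5-fold. Its change was larger than in the DP gate, where it was at 162 and 106 against 97.9 and 55.4 CPM, by 4.95 on the log2 scale (edgeR interaction, adjusted p = 3.95e-05). Trdc, the constant region of TCRδ, was at 88.9 and 114 against 19.3 and 20.7 CPM (log2 2.40 ± 0.23, adjusted p = 3.01e-07). In all, 9 of 10 γδ T cell markers were higher and 0 lower, with Maf at log2 2.46, Sox13 at 3.08 and Blk at 3.55. The summed level of that list was 276 and 527 CPM in OT-II against 69.5 and 141 CPM in wild-type CD4 SP cells.

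Treg marker RNA fell. Of 12 tested 8 were lower and 0 higher, with a median log2 difference of -1.29 against 0.00 for all genes. In each fit without 1 mouse 7 were called. Foxp3, the Treg lineage factor, was at 2.98 and 0 CPM in OT-II and at 16.6 and 12.2 CPM in wild-type cells (log2 -2.75 ± 0.45, adjusted p = 0.000404). Tnfrsf4 (OX40) was at 11.2 and 13.1 against 164 and 74.2 CPM (log2 -3.48 ± 0.23, adjusted p = 4.84e-10), Ctla4 at 2.29 and 2.81 against 14.4 and 44.6 CPM (log2 -3.02 ± 0.36, adjusted p = 6.94e-06) and Ikzf2 (Helios) at 121 and 107 against 206 and 285 CPM (log2 -0.97). In none of these 4 genes did the groups overlap. Of the 6 Treg antibodies 0 were called lower. GITR antibody, at 32.4 and 32 against 73.1 and 71 per 10000, and OX40 antibody, at 10.6 and 10.4 against 20.8 and 23.2, were not called (log2 -0.62, adjusted p = 0.301, and log2 -0.52, adjusted p = 0.34). Both were called lower in 2 of 15 alternatives, with library size (log2 -1.16 and -1.06) and with only the 4 mice compared. CD25 antibody was called higher (11.4 and 7.74 against 7.91 and 7.26, log2 0.84, adjusted p = 0.0205), with overlapping groups, no call in any fit without 1 mouse and log2 -0.063 with called doublets left out. Of 12 tested genes of negative selection 8 were lower and 1 higher (median log2 -1.28); no member was higher without OT-II replicate 1 or without wild-type replicate 4. This list shares Tnfrsf4, Tnfrsf9 (log2 -3.16), Tnfrsf18 and Ikzf2 with the Treg markers. It also holds Bcl2l11, the death factor BIM, which was at 23.8 and 27.1 against 67.5 and 106 CPM (log2 -1.6 ± 0.16, adjusted p = 6.6e-07).

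TCR response genes were lower in OT-II CD4 SP cells, 9 of 20 tested, with 1 higher. Nr4a1 was at 24.3 and 34.6 against 82.6 and 99.5 CPM (log2 -1.6 ± 0.17, adjusted p = 1.1e-06), Nr4a3 at 2.29 and 0.935 against 23 and 21.1 CPM (log2 -3.37 ± 0.37, adjusted p = 1.94e-06), Egr1 at 57.5 and 70.1 against 109 and 133 CPM (log2 -0.85) and Cd69 at 55.4 and 47.7 against 109 and 108 CPM (log2 -0.97). Cd5 was at 164 and 122 CPM in OT-II and 302 and 245 CPM in wild-type CD4 SP cells (log2 -0.86 ± 0.13, adjusted p = 0.000153). This was the opposite direction to the DP gate, and the 2 effects differed by 1.4 on the log2 scale (edgeR interaction log2 -1.4, adjusted p = 0.0015). Id3, an inhibitor of E proteins that TCR signals induce, was the member that rose (551 and 329 against 352 and 177 CPM, log2 0.83 ± 0.13, adjusted p = 0.000251); each OT-II mouse was above the wild-type mouse of its lane group, but the groups overlapped. The count of lower members was 6 without OT-II replicate 1 and 6 without wild-type replicate 4, and 9 or 10 without either of the other two. CD69 antibody in this gate was at 25.5 and 26.9 per 10000 in OT-II against 63.2 and 65.4 in wild-type cells, but the call was missed (log2 -0.75 ± 0.30, adjusted p = 0.131). CD5 antibody, at 1550 and 1608 against 1883 and 2110, was not called. Its log2 difference was positive in the main fit with TMM scaling, against the order of these levels, and negative with library size.

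Among lineage genes of CD4 SP cells, Zbtb7b (85 and 79.5 against 81.8 and 102 CPM, log2 -0.02, adjusted p = 0.981) and Gata3 (87.7 and 155 against 111 and 163 CPM, log2 -0.14, adjusted p = 0.752) were not called. Runx3 was at 89.1 and 116 against 47.3 and 62 CPM (log2 0.98 ± 0.15, adjusted p = 0.000152). Il7r, the receptor for the survival cytokine IL-7, was at 128 and 115 against 246 and 292 CPM (log2 -1.04). With Gimap4 (log2 -0.95) it was among 5 of 16 mature and egress markers that were lower, with 2 higher. The higher count was 5 without OT-II replicate 1 and 0 without OT-II replicate 2 or wild-type replicate 5, and the lower count 3 to 5 over all 4 such fits. Cell cycle genes fell here too, 13 of 16 G2M genes, such as Ube2c (33 and 21.5 against 85.3 and 86.9 CPM, log2 -1.49), but 1 of 16 S phase genes. Only 7 of the G2M genes were called without wild-type replicate 4. Lad1 (0.458 and 0 against 8.78 and 32.9 CPM), Arhgap20 (4.12 and 0.935 against 47.1 and 61 CPM) and Bcl3 (5.27 and 5.61 against 25.1 and 36.2 CPM) were also among the 10 largest falls.

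Some of the largest rises in CD4 SP cells followed 1 mouse. S100a8, S100a9 and Lyz2, genes of neutrophils and macrophages, were at 146, 222 and 125 CPM in OT-II replicate 1 but at 28.1, 32.7 and 6.55 CPM in OT-II replicate 2, where wild-type replicate 5 had 13.1, 32.9 and 10.8 CPM. Their log2 differences of 4.52, 3.68 and 4.10 became 1.23, 0.13 and -0.46 without OT-II replicate 1, none of them called, and 1.22, 0.12 and -0.59 without wild-type replicate 4. The myeloid list, of which 5 of 7 tested members were higher, summed to 602 and 117 CPM in OT-II against 150 and 182 CPM in wild-type CD4 SP cells, and had 0 higher members without OT-II replicate 1 or without wild-type replicate 4. Erythrocyte markers summed to 25.9 and 340 CPM in OT-II against 1065 and 25.8 CPM in wild-type CD4 SP cells.

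In CD4 SP cells 8 antibodies were higher and 2 lower (9.01% of 111, 7.21% as higher and 1.8% as lower), and 5 were higher and 17 lower when library size replaced TMM. The 2 lower ones were Vβ8 and CD86, a costimulatory ligand (7.53 and 9.95 against 27.8 and 29.6 per 10000, log2 -1.18 ± 0.27, adjusted p = 0.00067). Besides Vβ5, higher antibodies included Sca-1 (120 and 212 against 99.2 and 85.4, log2 1.35) and CD90.2 (Thy-1, 1182 and 1132 against 731 and 605, log2 1.34). Of the antibodies named here for CD4 SP cells only Vβ5 kept its call in each fit without 1 mouse, and Vβ8 lost it without wild-type replicate 4 (adjusted p = 0.919) and without wild-type replicate 5 (adjusted p = 0.537).

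**Figure D4:**
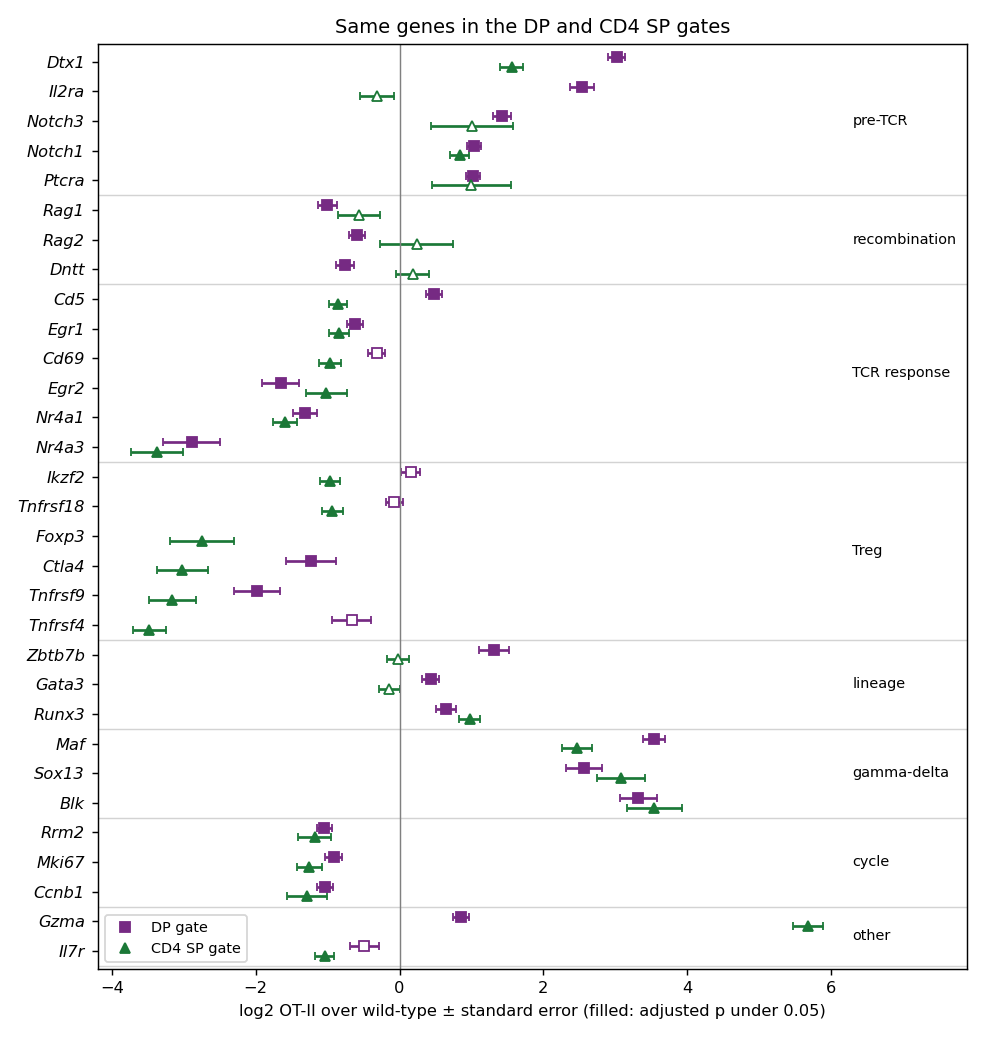
Difference between OT-II and wild-type mice (log2 ± standard error, horizontal axis) of the same genes in the DP gate (purple squares) and the CD4 SP gate (green triangles), grouped by list, with filled symbols for an adjusted p under 0.05. Pre-TCR genes lie to the right and recombination genes to the left in DP cells. Treg genes lie to the left in CD4 SP cells, and the TCR response genes Nr4a1 and Nr4a3 lie to the left in both gates. Cd5 lies on opposite sides in the 2 gates, at 0.48 and -0.86.

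Over all genes, the OT-II effect differed between the CD4 SP and DP gates for 84 of 11239 genes (0.747%), of which 19 were relatively higher and 65 lower in CD4 SP cells. Il2ra RNA was one of them, with a rise in DP cells and no call in CD4 SP cells, where it was at 19 and 17.8 against 18.5 and 39 CPM (interaction log2 -2.88, adjusted p = 0.00251). Dtx1 rose in both gates but less in CD4 SP cells, where it was at 71.9 and 81.4 against 23.6 and 32.4 CPM (log2 1.56; interaction log2 -1.5, adjusted p = 0.0041). For Zbtb7b the difference between gates missed the threshold (interaction log2 -1.35, adjusted p = 0.0547).

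In the DN gate 91 genes were higher and 43 lower (1.26% of 10667 tested, 0.853% as higher and 0.403% as lower), with 634 and 363 OT-II cells and 256 and 235 wild-type cells. Trac was at 2534 and 2546 CPM in OT-II against 53.4 and 99.9 CPM in wild-type DN cells (log2 5.2 ± 0.25, adjusted p = 2.5e-07). Myo6, an unconventional myosin, was at 71.4 and 76.4 against 1.33 and 3.87 CPM (log2 5.22 ± 0.28, adjusted p = 5.75e-07). In the whole thymus Myo6 was at 21 and 23 CPM in OT-II and higher in OT-I mice, at 70.5 and 92.5 CPM. Ccr9, a chemokine receptor of thymocytes, was at 460 and 841 against 84.4 and 293 CPM (log2 2.06 ± 0.19, adjusted p = 0.000101). Of the 10 γδ T cell markers 7 were higher and 0 lower, 4 without OT-II replicate 1, with Maf at 224 and 425 against 27.4 and 50.9 CPM (log2 3.12 ± 0.17, adjusted p = 6.2e-07) and Sox13 at 72.3 and 121 against 17 and 13.5 CPM (log2 2.51). Of genes of the early DN cell, Ptcra (245 and 128 against 161 and 130 CPM, log2 0.41, adjusted p = 0.285) and Rag1 (log2 0.55, adjusted p = 0.137) were not called, while Dtx1 was (log2 0.93), as 1 of 12 pre-TCR genes.

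The lower genes of the DN gate included the chemokines Cxcl10 (0.249 and 2.83 against 7.95 and 109 CPM, log2 -5.03 ± 0.39, adjusted p = 1.7e-05) and Cxcl9 (log2 -6.04). The B cell gene Cd79a was at 19.2 and 13.2 against 107 and 39.3 CPM (log2 -2.29; without OT-II replicate 1 adjusted p = 0.802), and the 10 B cell markers summed to 393 and 298 CPM in OT-II against 860 and 508 CPM in wild-type DN cells. Erythrocyte markers summed to 23456 and 1052 CPM in OT-II and 4669 and 230 CPM in wild-type DN cells, and 6 of 7 were called higher. In both genotypes this sum was higher in the mouse of the first lane group, and its part in the DN results was not tested. The number of genes called in this gate ran from 55 without OT-II replicate 1 to 885 without wild-type replicate 5.

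In the same gate 9 of 111 antibodies were called by edgeR (8.11%), 6 higher (5.41%) and 3 lower (2.7%). None was called when either OT-II mouse was left out, while some were still called without either wild-type mouse. The antibody against TCRβ was at 85.6 and 65 UMIs per 10000 in OT-II and at 18.5 and 18 in wild-type DN cells (log2 2.40 ± 0.16, adjusted p = 0.00641). CD62L (L-selectin), which lymphocytes use to enter lymph nodes, was at 516 and 574 against 209 and 365 (log2 1.33). The costimulatory receptor ICOS was lower, at 32.7 and 28.3 against 136 and 81.2 (log2 -1.43), and so were CD73 (12.7 and 13.3 against 42.4 and 39.9, log2 -1.30) and CD23, a marker of B cells (3.62 and 4.07 against 25.1 and 34.1, log2 -2.58).

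Part of the OT-II DN gate carried a surface receptor. TCRβ-high cells were 28.5% (181) and 28.9% (105) of OT-II DN cells but 3.91% (10) and 4.26% (10) of wild-type DN cells. Of the OT-II TCRβ-high DN cells 9.39% and 11.4% were Vβ5-high, far from the 95.6% and 92.1% of CD4 SP cells. Among the Trbv UMIs of these cells 15 of 55 and 3 of 21 were of Trbv12-2, against 53 of 73 and 16 of 26 in OT-II TCRβ-low DN cells. The split was made after the values were seen and rests on cells of the same 2 mice, so it is given as levels, with no test.

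RNA of the γδ T cell markers was at a higher level in the TCRβ-high than in the TCRβ-low DN cells of OT-II mice. All 10 were higher per CPM in both mice, for example Maf at 816 and 1816 against 83.9 and 137 CPM, Sox13 at 277 and 481 against 23.7 and 46.1 CPM and Trdc at 938 and 567 against 320 and 209 CPM, while Tcrg-C1 differed least, at 414 and 490 against 239 and 408 CPM. The antibody against the γδ TCR went the other way, with 5.06 and 5.29 UMIs per 10000 in TCRβ-high and 30.4 and 27.9 in TCRβ-low cells, as did the antibody against the Vγ2 chain, with 4.19 and 3.93 against 27.9 and 28.8. The antibody against the Vγ3 chain was slightly higher in TCRβ-high cells of both mice, at 12.9 and 13.2 against 11.2 and 11.7. Ccr9 was at 1803 and 3510 against 141 and 289 CPM. Of 12 pre-TCR and DN genes 10 were lower in TCRβ-high cells of both mice, among them Ptcra (9.08 and 11 against 301 and 152 CPM) and Il2ra (20.7 and 22 against 286 and 482 CPM), while 18 of 22 TCR response genes and 14 of 16 mature and egress markers were higher. In the 10 and 10 wild-type TCRβ-high DN cells Sox13 had no UMI.

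**Figure D5:**
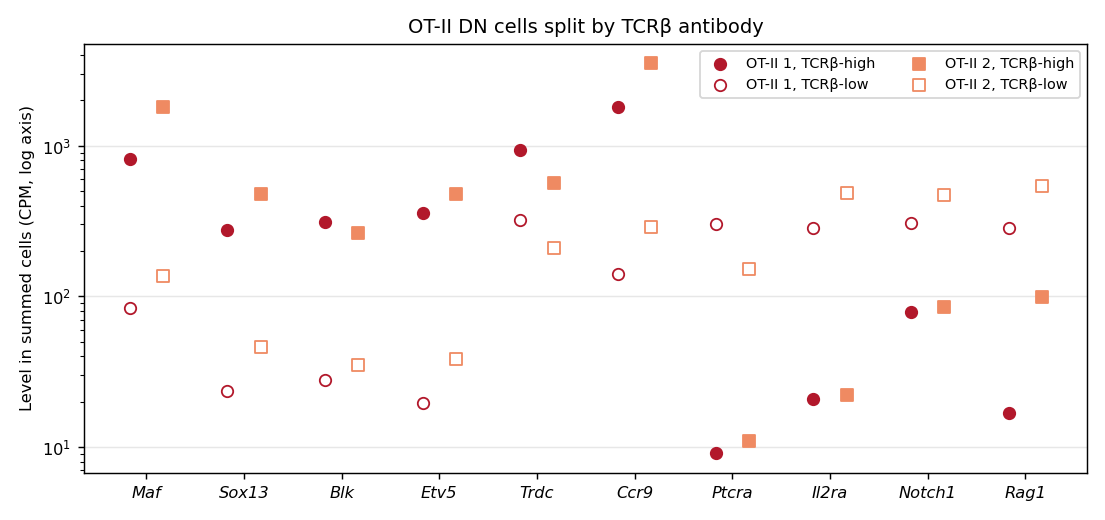
Level of 10 genes (CPM of summed cells, log axis) in OT-II DN cells with high (filled) and low (open) TCRβ antibody, for OT-II replicate 1 (red circles) and replicate 2 (orange squares). Maf, Sox13, Blk, Etv5, Trdc and Ccr9 are higher, and Ptcra, Il2ra, Notch1 and Rag1 lower, in the TCRβ-high cells of both mice.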

How the data were processed

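RNA and antibody tags of unsorted thymocytes were measured by CITE-seq (10x 3′ chemistry). The authors deposited UMI counts per gene or antibody and cell barcode for each lane, as raw counts from Cell Ranger 3.1.0 on mm10 (GRCm38), per the submitters' processing notes. Pooled matrices of several lanes repeat these counts and were not used. Cells with at most 15% mitochondrial UMIs and at least 200 genes were kept, and barcodes called as doublets (2.64% to 7.53% per lane) were left in and taken out as an alternative. Cells were gated on CD4, CD8a and TCRβ antibody levels, at the lowest point between modes of the wild-type cells of each lane group.

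For each mouse and gate the UMIs were added up, and the test was the quasi-likelihood test of edgeR 4.0.16 under R 4.3.3 (TMM, filterByExpr for RNA, no filter for the 111 antibodies), with genotype and lane group as terms over 6 mice, which leaves 2 residual degrees of freedom. Lane groups were inferred from the lane numbers in the labels, lanes 1 to 4 and 8 to 11. Whether these were separate batches is not given. OT-II 1 shared a lane group with wild-type 4, and OT-II 2 with wild-type 5. The deviations of their genes from the group means had a correlation of 0.677 (antibodies 0.476). Between OT-I and wild-type mice the correlation was 0.726 (antibodies -0.0965). Total RNA UMIs ran from 9758886 to 65649023 per mouse. A p-value measures the spread between these few mice only, estimated for each feature with help from all features tested. With 2 residual degrees of freedom a very small p, as for some antibodies, rests largely on that shared spread. The intervals of shares cover counting error only. The difference between gates was an edgeR interaction term within mice. On simulated counts with 200 genes changed, 75.8% of 2-fold changes were recovered in the whole thymus and 63.6% in the DN gate. Of 1.5-fold changes 50% and 23.5% were recovered. The counts were drawn around lane-group means with the trend of the fitted spread and no outlying mouse. They therefore cannot tell how calls depend on the block or on 1 mouse.

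Named genes were the 10 largest called changes in each direction with a mean of at least 10 CPM and the same direction in both lane groups, the 4 members of each list with the smallest p, and a fixed set of receptor, lineage and signaling genes; genes named beyond these were chosen after their values were seen. The members, lists and tests were chosen with earlier results of these data known. Gene positions came from GENCODE release M21, sequences from the GRCm38.p6 genome. Other tools were DESeq2 1.42.0, numpy 2.4.6, pandas 2.3.3, scipy 1.17.1, scikit-learn 1.9.0 and matplotlib 3.10.9. Alternatives were DESeq2, RLE size factors, library size, no low-count filter, no block, 4 mice only, other thresholds, added protein filters, the first lane of each wild-type mouse, CD69-low DP cells and each mouse left out. Some genes of the lists are not reported here by name.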

Additional observations from a re-analysis of the deposited data

Results flagged for a closer look

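For 20 named genes the OT-II effect in the CD4 SP gate differed from that in the DP gate by the edgeR interaction test, in which 84 of 11239 genes were called. Differences are log2, CD4 SP effect minus DP effect. The effect was higher in CD4 SP cells for Gzma (4.95), S100a8 (4.73), Lyz2 (4.63), S100a9 (3.38), Bzrap1 (3.11), Trdc (2.21) and Id3 (0.95). Of these, S100a8, S100a9 and Lyz2 rest on OT-II replicate 1, without which none of them was called in CD4 SP cells.

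The effect was lower in CD4 SP cells for Il2ra (-2.88), Tnfrsf4 (-2.65), Rnf43 (-2.23), Isg20 (-1.79), Trac (-1.68), Dtx1 (-1.5), Itm2a (-1.4) and Cd5 (-1.4). It was also lower for Ikzf2 (-1.21), Xaf1 (-1.18), H2-Q4 (-1.18), Bcl2l11 (-1.06) and Tnfrsf18 (-0.91). Cd5 and Itm2a were called higher in DP cells and lower in CD4 SP cells; both DP calls were lost without wild-type replicate 4 (adjusted p = 0.163 and 0.278). Rnf43, Trac and Dtx1 were higher in OT-II in both gates.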

How the results depend on the processing

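Without the replicate block the counts of called genes were 0 in the whole thymus (910 at an unadjusted p under 0.05 by edgeR), 0 among receptor segments, 0 in DP (682), 2 in CD4 SP (287) and 1 in DN cells (267), and 23 of 165 called named genes and antibodies remained called. DESeq2, which kept the block, called 1072 in DP, 121 in CD4 SP and 86 in DN cells. With the first lane of each wild-type mouse the counts were 166 in CD4 SP and 85 in DN cells and 7 whole-thymus antibodies, and with no low-count filter 492 in DN cells. Thresholds 1.5 times lower gave 58 genes in DN cells, 23 genes differing between gates and share differences of 7.51 (DN), 6.79 (CD4 SP) and -0.87 points (CD8 SP); thresholds 1.5 times higher gave 290 genes and 10.6 (DN) and 1.94 points (CD4 SP). Thresholds of each mouse gave 4 antibodies in DP and 5 in CD4 SP cells, and 6.85 (CD4 SP), -0.833 (CD8 SP) and -0.0553 points (CD69-high of DP). With only the 4 mice 68, 45 and 27 antibodies were called in the whole thymus, DP and CD4 SP cells. Protein filters gave 6 whole-thymus antibodies and -2.09 points for CD69-high DP cells, CD69-low DP cells gave 4 antibodies, and library size 22 in CD4 SP cells. The cause of these changes was not tested.

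Leaving out 1 mouse gave 1339 to 1974 called genes in the whole thymus, 14 to 26 segments, 1022 to 1530 in DP, 278 to 515 in CD4 SP and 55 to 885 in DN cells, and 2 to 3, 1 to 2 and 1 to 3 antibodies in the whole thymus, DP and CD4 SP cells. Share differences, left out in this way after the data were seen, ran from 8.64 to 9.18 (DN), -23.2 to -15.3 (DP), 5.09 to 5.73 (CD4 SP), -1.35 to -1.04 (CD8 SP), 2.76 to 9.49 (other), -1.31 to -0.31 (CD69-high of DP) and -37.8 to -19.3 points (CD69-high of CD4 SP). The sign changed for Trbc1 (log2 -0.12 to 0.00913), for Zbtb7b (-0.32 to 0.15, and 0.00376 with doublets out), Gata3 (-0.37 to 0.14) and Lyz2 (-0.59 to 6.28) in CD4 SP cells, and for CD5 antibody there (log2 -0.0549 to 0.49, and -0.34 with library size). CD25 antibody in CD4 SP cells went to log2 -0.063 with called doublets left out. The totals of 165 above and 2405 below are from a list of called genes and antibodies that holds neither this antibody value nor any antibody of the DN gate. Of 2405 values of called genes and antibodies under the alternatives, 336 lost the call and 2 more changed sign.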
